A study of Mus musculus with 13 samples.

Results

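The genes described here encode the enzymes that write, copy and remove cytosine methylation in DNA, read out as mRNA in germ cells of the fetal mouse ovary with and without the glucocorticoid receptor (GR, encoded by *Nr3c1*). They are the methyltransferase genes *Dnmt1*, *Dnmt3a*, *Dnmt3b* and *Dnmt3l*, the cofactor gene *Uhrf1*, the dioxygenase genes *Tet1*, *Tet2* and *Tet3*, and the DNA glycosylase gene *Tdg*. They were picked by gene symbol, as a set with a shared function, with earlier results of these data known. All 9 were among the 55335 genes of the count table. The filter on low counts left 13086 genes, 8 of them enzyme genes, and *Dnmt3l* did not pass it.

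All 13 libraries came from female E17.5 embryos (E, embryonic day) that carried the Tg(Pou5f1-EGFP)2Mnn reporter, and each held the GFP+ germ cells sorted from the ovary pair of 1 embryo. In the constitutive cross, WT embryos (n = 3) were compared with KO embryos (n = 3) from heterozygous parents. KO embryos were homozygous for an *Nr3c1* allele (from Nr3c1tm1.1Jda) whose exon 3 had been deleted with a β-actin Cre. In the conditional cross, every embryo was homozygous for the floxed allele and every dam received tamoxifen, 125 μg per g at E10.5. There, flox controls (n = 3) were compared with cKO embryos (n = 4), which also carried the inducible Cre allele Pou5f1tm1.1(cre/Esr1*)Yseg, active in Pou5f1-expressing cells. Tamoxifen, the floxed allele and the cross differ together between the crosses and cannot be told apart there. Within the conditional cross, only cKO embryos carry the Cre allele. Its effect and that of GR loss cannot be told apart in cKO against flox. Each library was a 3′ Tag-Seq library, in which a read marks the 3′ part of a polyadenylated transcript.

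DNMT1 copies methylation onto the new strand after replication, and UHRF1 brings it to hemimethylated CpG sites. DNMT3A and DNMT3B methylate new sites, helped in germ cells by the catalytically inactive DNMT3L. TET enzymes oxidise methylcytosine, and TDG excises the oxidised bases so that base excision repair can restore cytosine. Female germ cells lose nearly all of their DNA methylation before meiosis and, unlike male germ cells, stay in that state until the oocytes grow after birth, when DNMT3A and DNMT3L set the maternal imprints. Methylation itself was not measured in these libraries.

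Because CpG dinucleotides are the substrate of these enzymes, the promoters of the enzyme genes themselves were read from RefSeq (GRCm38.p6, 250 bases before to 50 after each start), which matched all 9 genes with 16 promoters. CpG counts per promoter of 300 bases ran from 2 to 57, with a median of 20, against a median of 7 over all 32851 promoters in RefSeq's table. *Tet2* had the CpG-richest promoter of the set, with 57 CpG on the minus strand at chr3:133544341-133544640, and 99.8% of all promoters held fewer. The second *Uhrf1* promoter, chr17:56304063-56304362 on the plus strand, held 33 CpG and the first held 12. *Dnmt3l* had few, with 6, 4 and 3 CpG in its 3 promoters, the first of which is chr10:78042037-78042336 on the plus strand. These 3 sequences are shown because they belong to the gene with the most CpG, the gene whose level differed most clearly between KO and WT, and the gene with the fewest counts. They are given 5′ to 3′ with every CpG in capitals.
Tet2 promoter: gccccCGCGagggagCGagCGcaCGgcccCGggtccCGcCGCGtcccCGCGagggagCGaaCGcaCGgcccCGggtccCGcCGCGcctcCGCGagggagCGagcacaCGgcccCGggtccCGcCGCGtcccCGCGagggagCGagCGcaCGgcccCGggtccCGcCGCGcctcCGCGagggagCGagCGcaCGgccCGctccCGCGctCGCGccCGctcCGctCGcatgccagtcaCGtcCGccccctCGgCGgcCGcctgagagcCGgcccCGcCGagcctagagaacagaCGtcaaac
Uhrf1 second promoter: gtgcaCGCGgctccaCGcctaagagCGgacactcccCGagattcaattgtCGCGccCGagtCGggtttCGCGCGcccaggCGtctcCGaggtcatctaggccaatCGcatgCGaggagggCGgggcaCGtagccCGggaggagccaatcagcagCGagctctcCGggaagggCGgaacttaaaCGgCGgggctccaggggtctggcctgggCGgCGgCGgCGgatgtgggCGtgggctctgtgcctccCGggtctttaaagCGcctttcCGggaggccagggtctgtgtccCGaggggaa
Dnmt3l first promoter: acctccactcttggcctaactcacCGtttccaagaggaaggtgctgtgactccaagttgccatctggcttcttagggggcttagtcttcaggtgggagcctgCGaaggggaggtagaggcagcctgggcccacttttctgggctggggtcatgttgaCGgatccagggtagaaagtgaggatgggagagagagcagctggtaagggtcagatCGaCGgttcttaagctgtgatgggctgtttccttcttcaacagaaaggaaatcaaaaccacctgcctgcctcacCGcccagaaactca
CpG filled long stretches of the *Tet2* sequence and was sparse in that of *Dnmt3l*. *Dnmt3a* carried 46, 47 and 18 CpG, *Dnmt3b* 30, *Tdg* 26, *Tet3* 22 and *Tet1* 17, while the *Dnmt1* promoters ranged from 2 to 33. The core hexamer of a GR binding site, TGTTCT on either strand, occurred in 2 of the 16 promoters, the third of *Dnmt1* and that of *Tet2*, which is 12.5% against 18.97% of all promoters of that length. The complete palindrome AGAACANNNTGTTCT occurred in 0 of the 16 and in 3 of all promoters. These matches describe the sequence only, not binding.

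**Figure D1:**
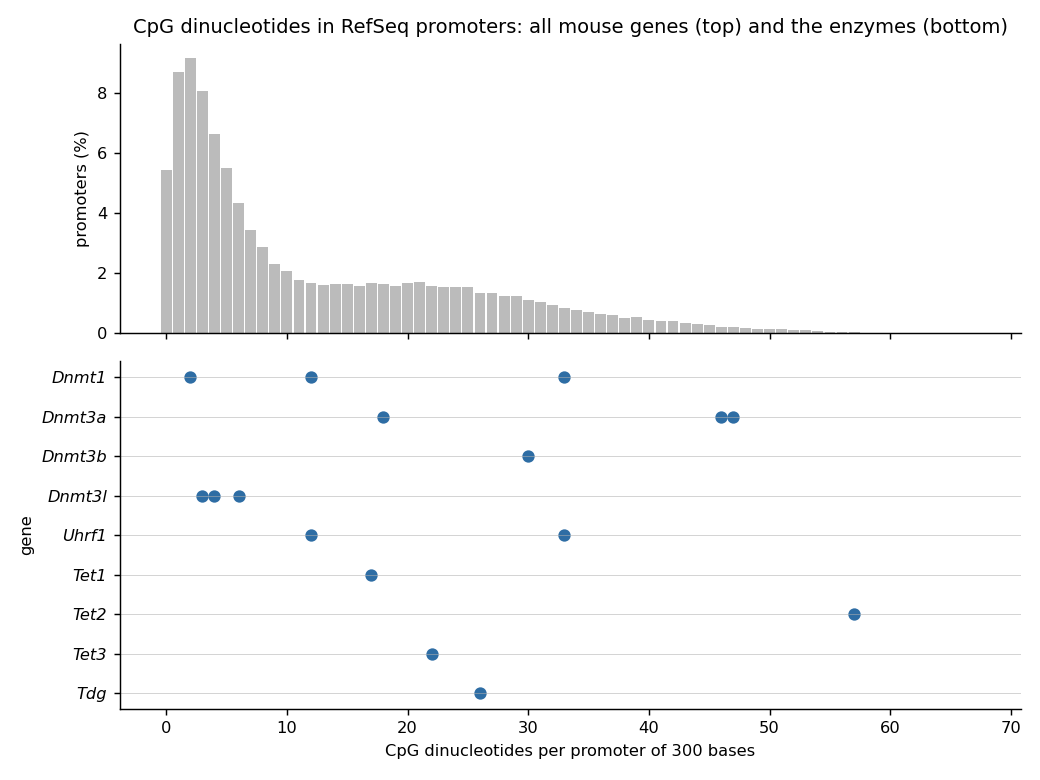
CpG dinucleotides per RefSeq promoter of 300 bases (x axis). The top panel gives the percent of all 32851 promoters at each CpG count, and the bottom panel has a point for each of the 16 promoters of the enzyme genes. *Dnmt3l* lies at 3 to 6 CpG, close to the median of 7, and *Tet2* at 57.

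Between 2048706 and 3674989 reads were counted per library, so that 1 count was worth 0.272 to 0.486 CPM (counts scaled to a common library total, that of the tested genes after TMM). Genes with a count numbered 13841 to 14721 in WT and 12946 to 13544 in KO, without overlap, and KO 3 had the fewest. In flox they numbered 13872 to 15629 and in cKO 13460 to 14511, with overlap. The part of this in the differences between KO and WT was not tested. Of 10 fetal oocyte markers, 9 had counts in every library and summed to 11776 to 19101 CPM. The tenth, *Sycp3*, was at 0 in all 13 libraries. Its interval lies wholly inside another gene, and all 1218 protein-coding genes placed like this were at 0. The 15 ovarian somatic markers summed to 99.2 to 360 CPM, with 8 to 14 of them detected. The 6 erythroid markers summed to 0 CPM in KO 3 and to 1323 CPM in flox 1. *Nr3c1* had 46.0, 29.1 and 58.7 CPM in WT and 34.2, 26.3 and 73.4 in KO, then 46.5, 46.7 and 104 in flox and 59.2, 48.4, 30.1 and 72.8 in cKO. The groups overlapped. Counts are per whole gene and do not show reads of the deleted exon apart, so they gave no check of the genotypes, which are taken from the labels.

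Transcripts of *Dnmt1*, *Uhrf1*, *Dnmt3a*, *Dnmt3b* and of all 3 Tet genes were counted in every embryo. *Dnmt3b*, *Tet1* and *Tet2* varied widely between embryos of the same group. *Tdg* and *Dnmt3l* were at or near 0 in many libraries. Of the 8 genes tested, 0 were called in any comparison at an adjusted p of at most 0.05 (edgeR's quasi-likelihood test, Benjamini-Hochberg over 13086 genes), and 0 were called with DESeq2 or limma's voom. At an unadjusted p under 0.05 there was 1, *Uhrf1*, in KO against WT and 0 in cKO against flox. The clearest difference was in *Uhrf1*, whose 3 KO levels all lay above the 3 WT levels, and even this did not pass adjustment over all genes.

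These counts are set beside those over all tested genes. In KO against WT, 1 of the 8 genes had an unadjusted p under 0.05 where 5.82% of all tested genes did, and 0% of all genes were called. *Uhrf1* was 1 of 8 with all KO embryos above all WT embryos, which 3.79% of tested genes showed, and 0 of 8 had all KO embryos below, which 5.67% showed. In cKO against flox 0 of 8 had an unadjusted p under 0.05 (3.19% of all genes), 0% of genes were called, and 0 of 8 did not overlap, where 2.18% of genes lay wholly higher and 2.79% wholly lower. For the averaged effect 1 of 8, *Uhrf1*, was under 0.05 (5.34% of all genes, 0% called), and for the difference of the effects 0 of 8 (4.39%, 0% called). Between the crosses 0 of 8 were under 0.05 (5.59% of all genes), and 0.00764% of genes were called, which is 1 gene, the ubiquitin gene *Ubb*. The median log2 fold change of the 8 was 0.08 in KO against WT, beside -0.03 over all genes, and 0.23 in cKO against flox, beside -0.01.

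**Figure D2:**
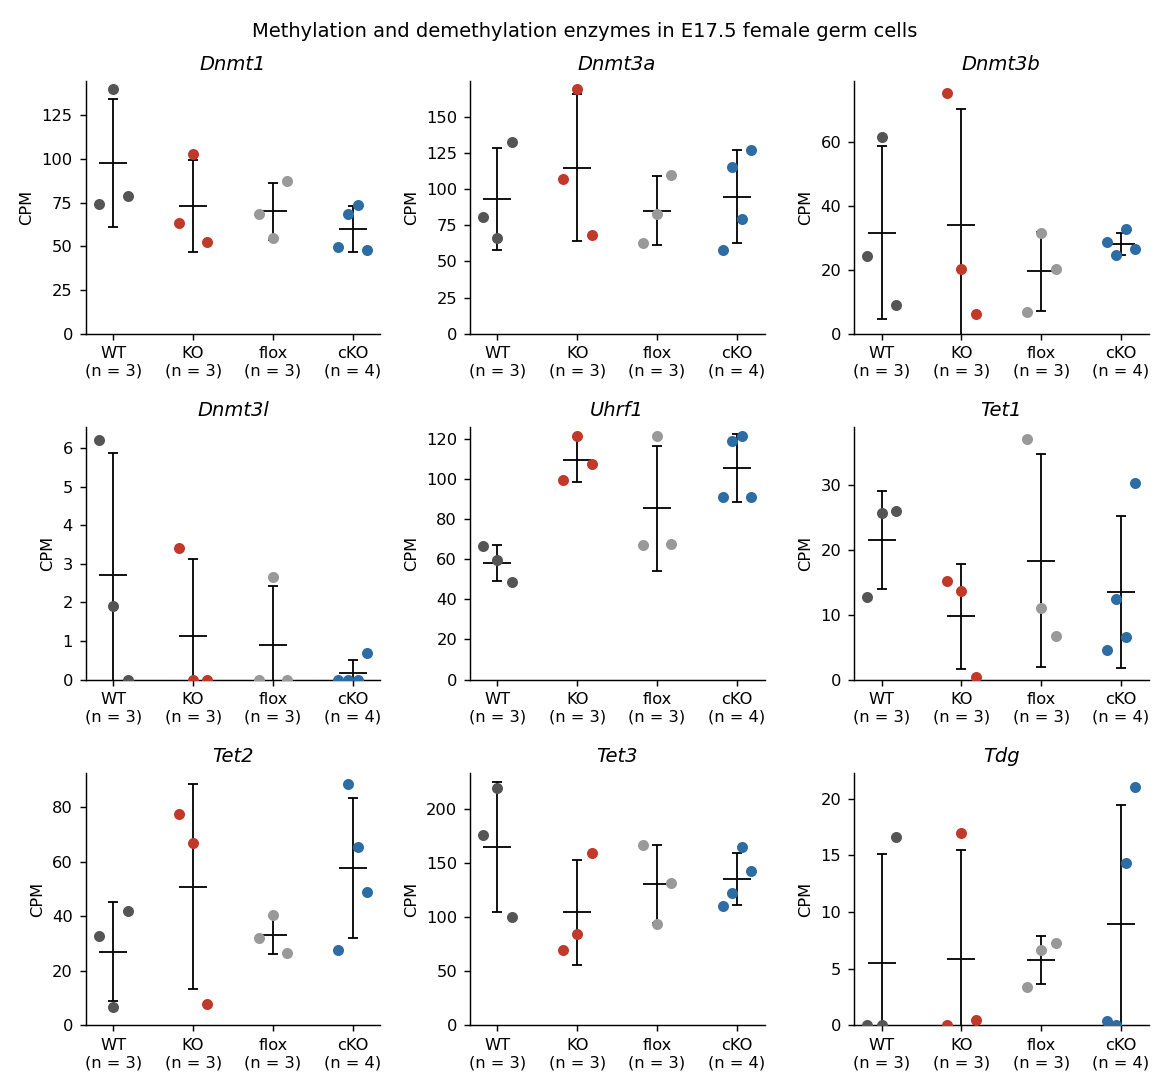
Levels of the 9 enzyme genes in CPM (y axis, from 0, a separate scale per gene) in each embryo, by group. Points are embryos, horizontal bars are group means and whiskers are SD (n = 3, 3, 3 and 4). *Uhrf1* is the gene whose KO points (99.6 to 122 CPM) all lie above its WT points (48.7 to 66.4 CPM), and *Dnmt3l* and *Tdg* have many points at 0.

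*Uhrf1* (ENSMUSG00000001228.14) lies on chromosome 17 of mm10 from 56303321 to 56323486 on the plus strand, and no other gene of the table overlaps it. WT embryos had 66.4, 59.7 and 48.7 CPM and KO embryos 99.6, 122 and 107, from 125 to 262 counts per library. The lowest KO embryo was above the highest WT embryo. Means were 58.3 ± 8.94 CPM in WT and 109 ± 11.1 in KO (SD, n = 3 each), and the log2 fold change was 0.91 (SE 0.37, 95% confidence interval 0.15 to 1.68). The unadjusted p was 0.0216 and the adjusted p 0.847 with edgeR. Leaving out WT 3 gave 0.81 with an unadjusted p of 0.0701, and leaving out KO 2 gave 0.84 with 0.0564.

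In the conditional cross the *Uhrf1* groups overlapped. Flox embryos had 67.2, 121 and 67.4 CPM and cKO embryos 90.7, 119, 121 and 90.8, so that flox 2 was as high as the highest cKO embryos and the other two flox embryos were below all of them. Means were 85.3 ± 31.2 CPM (n = 3) and 105 ± 16.9 (n = 4), a log2 fold change of 0.30 (SE 0.34, 95% confidence interval -0.41 to 1.02, unadjusted p = 0.387, adjusted p = 1.00 with edgeR). The log2 fold change was 0.17 without flox 1, 0.17 without flox 3 and 0.65 without flox 2, with unadjusted p of 0.678, 0.672 and 0.123. The effects of GR loss in the 2 crosses differed by -0.61 (cKO effect minus KO effect, SE 0.50, adjusted p = 1.00 with edgeR), which the test did not separate from 0, and by -0.27 without flox 2. Averaged over both crosses, a contrast added after these levels were seen, the log2 fold change was 0.61 (SE 0.25, unadjusted p = 0.0247, adjusted p = 0.882 with edgeR). The unadjusted p was 0.0528, 0.0579 and 0.0601 without WT 3, flox 1 and flox 3 in turn.

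The *Uhrf1* group means ran in the order WT, flox, cKO, KO. WT and flox did not overlap, by a margin of 66.4 to 67.2 CPM, while flox with cKO and cKO with KO did. The share of all genes with WT and flox apart was not computed. Between the crosses as a whole the log2 difference was 0.25 (conditional minus constitutive, SE 0.25, unadjusted p = 0.335), and 0.084 without flox 2. Marker sums were read in KO and WT as well. The somatic marker sum was 161 to 195 CPM in WT and 99.2 to 155 in KO, without overlap, with 10 to 13 and 8 to 11 of 15 markers detected. Of single tested genes, 5.67% lay wholly lower in KO. Of the 12 tested somatic markers, 7 were lower and 5 higher in KO, and 1 had an unadjusted p under 0.05 with edgeR. *Foxl2*, which marks granulosa cells, was at 0 in 2 of the 13 libraries. The sum of 12 S phase and mitotic genes was 1089 to 1285 CPM in WT and 1130 to 1336 in KO, and the groups overlapped. The part of these markers in the *Uhrf1* difference was not tested. In sorted bulk samples such as these, fewer cells of a type and less RNA per cell cannot be told apart.

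*Dnmt1* (ENSMUSG00000004099.16, chromosome 9, 20907209 to 20959888, minus strand) had 74.3, 140.0 and 79.1 CPM in WT and 63.5, 103 and 52.8 in KO. In the conditional cross it had 68.5, 54.6 and 87.3 CPM in flox and 49.9, 68.7, 73.4 and 48.0 in cKO. Both comparisons overlapped, with WT 2 the highest embryo and cKO 4 the lowest. The log2 fold changes were -0.42 (SE 0.42) for KO and -0.23 (SE 0.39) for cKO, with unadjusted p of 0.327 and 0.571. Leaving out 1 library moved the first from -0.066 without WT 2 to -0.74 without KO 2, and the second from -0.027 without flox 3 to -0.37 without flox 2. Among the enzyme genes *Dnmt1* had the lowest unadjusted p between crosses, 0.195, with a log2 difference of -0.38 (conditional minus constitutive, SE 0.29), or -0.20 without WT 2.

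Of the de novo enzymes, *Dnmt3a* (ENSMUSG00000020661.15, chromosome 12, 3806007 to 3914443, plus strand) was present in every library, from 138 to 488 counts. It had 81.0, 65.9 and 133 CPM in WT, 107, 169 and 68.6 in KO, 62.6, 82.6 and 110.1 in flox, and 57.8, 115, 79.3 and 127 in cKO. All 4 groups overlapped. The log2 fold changes were 0.30 (SE 0.42) for KO and 0.16 (SE 0.39) for cKO. *Dnmt3b* (ENSMUSG00000027478.15, chromosome 2, 153649450 to 153687730, plus strand) ranged from 6.16 to 75.3 CPM, with 24.3, 61.6 and 8.97 in WT, 75.3, 20.4 and 6.16 in KO and 6.76, 31.5 and 20.4 in flox. The 4 cKO embryos were closer to each other, at 28.7, 24.6, 32.7 and 26.6 CPM. With such spread in WT and KO, its log2 fold changes of 0.11 (SE 0.83) and 0.53 (SE 0.79) were within error, and the second ran from 0.12 without flox 1 to 1.05 without flox 2.

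*Dnmt3l* (ENSMUSG00000000730.13, chromosome 10, 78041947 to 78063622, plus strand), the cofactor of postnatal methylation in oocytes, had 35 counts in all 13 libraries together. WT embryos had 14, 4 and 0 counts and KO embryos 9, 0 and 0. Flox embryos had 0, 6 and 0, and cKO embryos 0, 0, 0 and 2. It was thus at 0 in 8 of 13 libraries, where a count of 0 allows a level of up to 3 counts, or 0.816 to 1.46 CPM. By an exact permutation test of the difference in mean log2 CPM, two-sided, p was 0.7 for KO against WT, where 3 against 3 allows none under 0.1, and 0.714 for cKO against flox, where the smallest possible is 0.0286. Of its relatives in the table, the rodent gene *Dnmt3c* had 67 counts in all, and the pseudogenes *Dnmt3l-ps1* and *Dnmt3a-ps1* had 0.

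Among the oxidising enzymes, *Tet3* (ENSMUSG00000034832.15, chromosome 6, 83362373 to 83459084, minus strand) had 176, 219 and 100.3 CPM in WT and 69.6, 84.6 and 159.6 in KO. KO 1 and KO 2 were below all WT embryos and KO 3 was between them. The means were 165 ± 60.2 and 105 ± 48.3 CPM (SD, n = 3 each), and the log2 fold change was -0.66 (SE 0.38, unadjusted p = 0.0938, adjusted p = 0.878 with edgeR). Leaving out 1 library moved it from -0.39 without WT 2 (unadjusted p = 0.350) and -0.42 without KO 1 (0.321) to -1.09 without KO 3 (0.0139). In the conditional cross *Tet3* had 167, 94.2 and 132 CPM in flox and 111, 123, 165 and 143 in cKO, and the log2 fold change was 0.05 (SE 0.35). The effects in the crosses differed by 0.71 (cKO effect minus KO effect, SE 0.52, unadjusted p = 0.184). That difference was 0.45 without WT 2 (unadjusted p = 0.419), 0.47 without KO 1 (0.389) and 1.14 without KO 3 (0.0398).

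*Tet2* (ENSMUSG00000040943.12, chromosome 3, 133463679 to 133545139, minus strand) was higher on average without GR in both crosses, but with overlap. It had 32.7, 6.69 and 41.9 CPM in WT and 77.5, 67.1 and 7.92 in KO, where KO 3 was again apart from its group. Flox embryos had 32.1, 40.4 and 26.7 CPM and cKO embryos 27.7, 88.6, 65.4 and 49.0, with 3 of 4 above all flox embryos. The log2 fold changes were 0.90 (SE 0.70) and 0.80 (SE 0.67), and their average 0.85 (SE 0.48, unadjusted p = 0.0921, adjusted p = 0.909 with edgeR). The value for KO was 0.45 without WT 2 (unadjusted p = 0.535), 0.47 without KO 1 (0.558) and 1.41 without KO 3 (0.0388). The value for cKO was 0.52 without cKO 2, and the average ran from 0.63 without WT 2 (unadjusted p = 0.192) to 1.11 without KO 3 (0.0157). *Tet1* (ENSMUSG00000047146.17, chromosome 10, 62804570 to 62908996, minus strand) had 12.8, 25.8 and 26.1 CPM in WT, 15.2, 13.6 and 0.440 in KO, 37.2, 11.1 and 6.79 in flox and 4.50, 12.5, 6.61 and 30.4 in cKO. The 0.440 CPM of KO 3 were 1 count. Its log2 fold changes, -1.14 (SE 1.12) and -0.44 (SE 1.03), were close to their errors or below them. The first was -0.57 without KO 3, -1.61 without KO 1 and -2.03 with voom.

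*Tdg* (ENSMUSG00000034674.18, chromosome 10, 82629828 to 82650799, plus strand) had 0, 0 and 61 counts in WT, 0, 35 and 1 in KO, 8, 15 and 15 in flox and 1, 0, 39 and 61 in cKO. A gene at 0 in 4 libraries and above 30 counts in 4 others gave intervals too wide to read, with log2 fold changes of 0.05 (SE 2.05) and 0.63 (SE 1.93). *Tdg* was the member whose gene interval has its 3′ end in another gene. There, 73.4% of its last 500 bases fall within *Glt8d2*, on the opposite strand, and 367 bases are shared. Of its 5 distinct coding transcript ends, 1 lies inside another gene. The strand setting of the counting is not stated in the sources used here. All 1218 protein-coding genes wholly inside other genes were at 0, so reads in the shared bases may not be counted for *Tdg*. Its counts may then lie below its level. Among 652 protein-coding genes with a like overlap, 4.45% were at 0 in all libraries, which does not measure reads lost from the others. *Glt8d2* itself had 267 counts in all. The part of the overlap in *Tdg*'s counts was not tested.

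**Figure D3:**
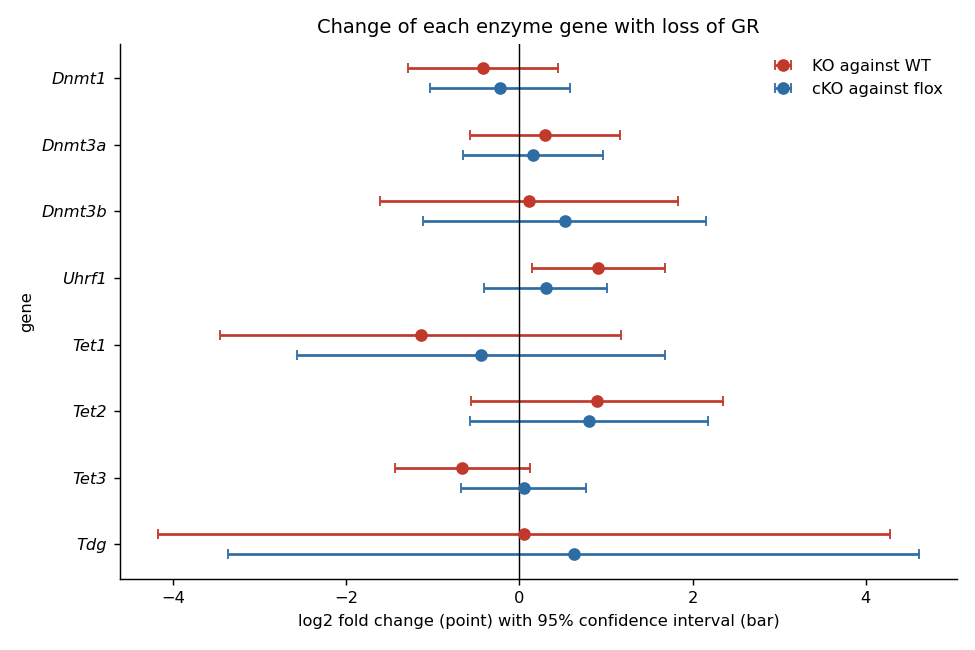
Log2 fold changes (x axis, points) with 95% confidence intervals (bars) of the 8 tested enzyme genes (y axis), KO against WT in red and cKO against flox in blue. Of the 16 intervals, the one of *Uhrf1* in KO against WT (0.15 to 1.68) leaves out 0, and that of *Tdg* there runs from -4.18 to 4.28.

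The size of change that these libraries could hide differed by gene. Within groups the SD of log2 CPM was 0.29 for *Uhrf1*, 0.41 for *Dnmt1*, 0.47 for *Tet3* and 0.53 for *Dnmt3a*, all below the median of 0.98 over tested genes. It was 1.14 for *Tet2*, 1.15 for *Dnmt3b*, 1.33 for *Tet1* and 2.21 for *Tdg*. In cKO against flox, the confidence intervals of *Dnmt3a* and *Tet3* lay within a 2-fold change in either direction, and no gene met this in KO against WT. For the average over both crosses, those of *Dnmt1*, *Dnmt3a* and *Tet3* did. Over the 27 neighbouring pairs of group means of the 9 genes, libraries of the 2 groups failed to overlap only in the *Uhrf1* pair of WT and flox. There the highest WT embryo had 66.4 CPM and the lowest flox embryo 67.2 CPM. The share of all tested genes with such pairs apart was not computed. Neighbours have the closest means, which favours overlap. Groups that are not neighbours, such as WT and KO for *Uhrf1*, are outside this count.

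The levels of the enzymes were also compared with each other across embryos. Over the 28 pairs of tested genes, Pearson's r of log2 CPM over 13 libraries ran from -0.61 to 0.60 with a median of 0.14. *Dnmt3a* and *Tet2* were the most alike pair, with r = 0.60, or 0.68 after removing group means. *Tet2* and *Tet3* were the most opposed, with r = -0.61, or -0.70 after removing group means. All pairs share the same libraries and their depth, and these values are descriptions. By the same measure, the gene most like each member was *Aspm* for *Dnmt1* (r = 0.86), *Pcsk6* for *Dnmt3a* (0.85), *Gtsf2* for *Dnmt3b* (0.91), *Ptrhd1* for *Uhrf1* (0.83), *Riox2* for *Tet1* (0.91), *Cfap300* for *Tet2* (0.88), *Atxn3* for *Tet3* (0.87) and *Tcf15* for *Tdg* (0.89), each the highest r among the other tested genes. A highest r picked from so many genes over 13 libraries is raised by the choice itself, so these too are descriptions. *Gtsf2* had a mean of 3.17 CPM, and *Tcf15* had 2.75 CPM and was at 0 in 4 libraries.

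Genes that work beside the enzymes were taken from 7 lists, and 0 of their genes were called in KO against WT or in cKO against flox. The maintenance partners, 8 genes that act with DNMT1 and UHRF1 at the replication fork or on chromatin, had 7 tested members. Of these the chromatin remodeller *Hells* stood at 652 ± 107 CPM over all libraries (SD, n = 13), the DNA ligase *Lig1* at 405 ± 121 and the deubiquitinase *Usp7* at 271 ± 90.2. In KO against WT, 4 of 7 were higher and 3 lower, with a median log2 fold change of 0.12, and *Lig1* came closest to the threshold at -0.62 (SE 0.31, unadjusted p = 0.0563), or -0.18 without WT 2 (0.567). In cKO against flox the median was -0.04. *Pclaf* was at 0 in all 13 libraries, and its interval lies wholly inside other genes.

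All 9 regulators of de novo methylation and of imprints were tested, with median log2 fold changes of -0.02 in KO against WT and 0.04 in cKO against flox. *Dppa3*, which guards methylation and restrains UHRF1 in oocytes, had a mean of 270 ± 83.2 CPM in WT and 484 ± 161 in KO (SD, n = 3 each), and 346 ± 85.9 in flox (n = 3) and 492 ± 311 in cKO (n = 4). Its log2 fold changes were 0.84 (SE 0.44) and 0.51 (SE 0.42), and their average 0.67 (SE 0.31, unadjusted p = 0.0371, adjusted p = 0.899 with edgeR). *Kdm1b*, a histone demethylase needed for maternal imprints, had an average log2 fold change of 0.70 (SE 0.32, unadjusted p = 0.0402, adjusted p = 0.899 with edgeR). Without KO 3 the *Kdm1b* value was 0.34 with an unadjusted p of 0.259, and without cKO 1 the *Dppa3* value was 0.47 with 0.120. *Trim28*, a corepressor that holds imprints, was at 412 ± 78.2 CPM in flox (n = 3) and 282 ± 61.9 in cKO (n = 4), a log2 fold change of -0.55 (SE 0.26, unadjusted p = 0.0460, adjusted p = 1.00 with edgeR). In KO against WT its value was -0.04. Leaving out 1 library raised the *Trim28* p over 0.05 in 10 of 13 cases.

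The methyl-CpG readers, among them *Mbd3* (109.9 CPM) and *Zbtb38* (65.7 CPM), had median log2 fold changes of -0.03 and 0.04 in the 2 comparisons. Of 7 tested, 0 had an unadjusted p under 0.05 in either comparison, and *Mbd3*, part of the NuRD complex, was nearest in KO against WT at -0.90 (SE 0.44, unadjusted p = 0.0508), or -0.56 without WT 2 (0.251). The base excision repair genes, among them *Parp1* (224 CPM), *Xrcc1* (167 CPM) and *Ung* (118 CPM), had medians of 0.11 and 0.00. Of 14 tested, 0 had an unadjusted p under 0.05 in KO against WT and 1 in cKO against flox, the endonuclease gene *Apex1*. It had 0 counts in all 3 flox embryos and 1.04 to 9.76 CPM in cKO embryos, so no fold change is given. The 10 genes of methyl donor supply, among them *Mat2a* (555 CPM) and *Ahcyl1* (207 CPM), had medians of 0.24 in both comparisons. *Mat2b*, a regulatory subunit of methionine adenosyltransferase, was at 143 ± 38.7 CPM in WT and 246 ± 14.7 in KO (SD, n = 3 each), and the log2 fold change was 0.78 (SE 0.36, unadjusted p = 0.0399, adjusted p = 0.847 with edgeR). It was 0.07 in cKO against flox, and without WT 1 the KO value was 0.59 with an unadjusted p of 0.149.

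Genes that methylated promoters are known to silence in other tissues and that open in germ cells served as a list for the unmethylated state. Their RefSeq promoters held 12 to 38 CpG, with a median of 23. Of the 16 genes, 14 were tested and the other two, *Sycp3* and *Dpep3*, were at 0 and lie wholly inside other genes. The synaptonemal complex gene *Sycp1* stood at 5129 CPM over the 13 libraries, the RNA-binding gene *Dazl* at 1270 and the piRNA pathway gene *Mael* at 1215. In KO against WT 12 of 14 were higher, with a median log2 fold change of 0.23 beside -0.03 over all genes, and in cKO against flox 9 of 14, with a median of 0.08. *Sohlh2*, a transcription factor of early oocytes, was at 48.9 ± 16.3 CPM in WT and 115 ± 45.3 in KO, a log2 fold change of 1.23 (SE 0.47, unadjusted p = 0.0141, adjusted p = 0.847 with edgeR). *Tex101* had the opposite sign, -0.91 (SE 0.41, unadjusted p = 0.0361, adjusted p = 0.847 with edgeR). Neither differed beyond its error in cKO against flox, at 0.08 (SE 0.43) and -0.16 (SE 0.38). Without KO 3 *Sohlh2* had an unadjusted p of 0.0902, and without KO 1 *Tex101* had 0.142. The oocyte markers, which share genes with this list, had medians of 0.31 and -0.06.

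UHRF1 and DNMT1 act at replication, so S phase and mitotic genes were listed as well. All 12 had counts in every library, among them *Mcm3* (211 CPM), *Top2a* (205 CPM) and *Mcm5* (191 CPM). In KO against WT and in cKO against flox, 0 of 12 had an unadjusted p under 0.05, with median log2 fold changes of 0.15 and 0.10. The thymidylate synthase gene *Tyms* was nearest, at 1.55 (SE 0.77, unadjusted p = 0.0546) in KO against WT, or 0.34 without KO 1 (0.695). Between the crosses 4 of 12 had one, where 5.59% of all tested genes did, all lower in the conditional cross, beside 2 of 12 somatic and 2 of 3 erythroid markers that were higher there. Of all 12 S phase and mitotic genes, 6 were higher and 6 lower there. Their median log2 difference was -0.02, beside 0.03 over all tested genes.

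**Figure D4:**
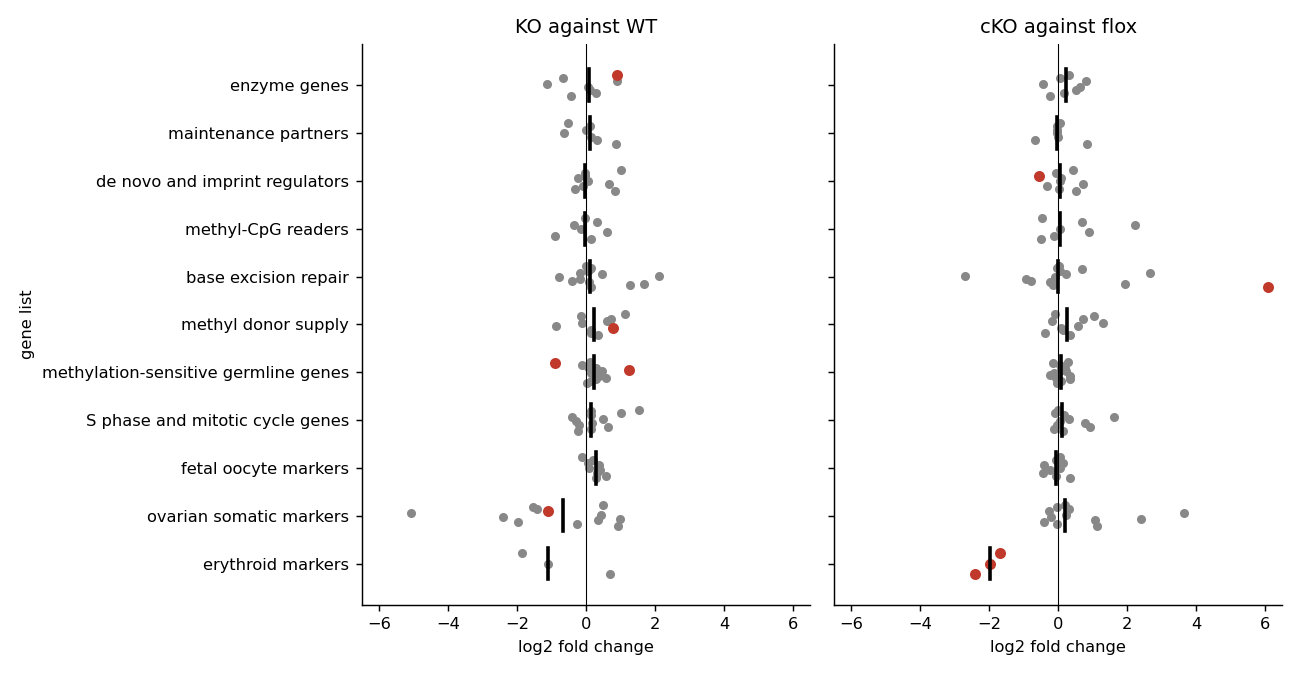
Log2 fold changes (x axis) of the tested genes of each list (y axis) in KO against WT (left) and cKO against flox (right). Each point is a gene, black bars are list medians, and red points have an unadjusted p under 0.05. Of 92 listed genes beyond the enzymes, 4 are red on the left and 5 on the right. Where a group is at 0 in every library, as *Apex1* is in flox, the fitted value depends on edgeR's default prior count.

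Over the 92 tested genes of all lists, 4 (4.35%) had an unadjusted p under 0.05 in KO against WT, beside 5.82% of all tested genes, and 5 (5.43%) in cKO against flox, beside 3.19%. Between the crosses it was 11 (12.0%), beside 5.59%. Of these 5, 3 were globin genes of the erythroid list, *Hba-a1*, *Hbb-bs* and *Hbb-bt*, with log2 fold changes of -2.41, -1.97 and -1.70. Without flox 1, *Hba-a1* was at -0.97 (unadjusted p = 0.282) and *Hbb-bs* at -1.07 (0.168). The erythroid sum was 282 to 1323 CPM in flox and 76.9 to 191 in cKO, so erythroid marker RNA separated flox from cKO as well, and its part in the other differences between them was not tested. In KO against WT the somatic marker *Nr2f2* was among the 4, at -1.10 (SE 0.50), or -0.62 without WT 1. The medians of the tested somatic markers were -0.68 and 0.20, and those of the 3 tested erythroid markers -1.11 and -1.97.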

How the data were processed

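Germ cells were sorted as GFP+ cells from single E17.5 embryos, and 3′ Tag-Seq libraries were made from them, with no molecular identifiers described. The authors trimmed reads with cutadapt, aligned them to mm10 with STAR 2.6.0 and counted them with featureCounts 1.6.3, per the submitters' processing notes, and the deposited values are raw counts per gene. In the table each gene's length equals its whole interval, so reads in introns were counted. The annotation and strand setting are not given in the sources used here. Tables of the authors' comparisons (fold changes, p-values), made with edgeR 3.28.1 and limma 3.42.2, were not used. Symbols came from GENCODE M21.

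Low genes were removed with filterByExpr (at least 10 counts, 15 in total), and the others were tested with edgeR 4.0.16 in R 4.3.3: TMM, quasi-likelihood F test, a mean for each of 4 groups, all 13 libraries, Benjamini-Hochberg over 13086 genes, called at an adjusted p of at most 0.05. A prior count of 2 entered log2 CPM, while the fit kept edgeR's own default prior count. SEs and confidence intervals of the edgeR fit were derived from the log2 fold change and its F statistic. The common biological coefficient of variation was 0.841. Levels are given as mean ± SD. *Dnmt3l*, under the filter, was tested by exact permutation. Replicates are separate embryos. No pair of replicates agreed within sampling noise. P-values of the fit set a difference of group means against the spread between single embryos, an estimate that borrows from other genes. Which embryos shared a dam or litter is not given in the sources used here, so littermates could not be told apart from unrelated embryos. The floor of 3 counts reflects counting error alone. A check on simulated counts, whose spread depended on level alone, asked for more calls at larger changes and for mostly right signs. It set no limit on false calls, so it does not measure the error rate in these data.

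The members and lists were chosen with earlier results of these data known. The genes named are the enzymes, from each list those called, the 3 highest by mean CPM and up to 2 with the lowest p in each of KO against WT and cKO against flox, the gene most like each enzyme, and *Nr3c1*. Other genes (Foxl2, *Ubb*, relatives and neighbours of the enzymes, genes at 0) were named after their values were seen. The settings varied were the normalization (RLE, upper quartile), the tool (DESeq2 1.42.0, limma 3.58.1 with voom), the filter (only 1 count, or 10 in every library), a fit of the 2 groups alone, a block for the replicate number, and the removal of 1 library at a time. The averaged effect was added after the data were seen. Of the methyl-CpG readers, *Mbd1* was not analysed here.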

Additional observations from a re-analysis of the deposited data

Results flagged for a closer look

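In the group of 4 cKO embryos, 3 measures had an embryo whose gap to the nearest other embryo, over the group's range, passed Dixon's 95% critical value for 4 samples, which chance gives in about 1 in 20 groups. *Dnmt3l* was at 0.690 CPM, which is 2 counts, in cKO 4 and at 0 in the other 3. With 3 values at 0 any other value passes, and 2 counts lie under the floor of 3. The sum of the 9 enzyme genes was 371 CPM in cKO 1 and 537 to 558 CPM in the others. The erythroid marker sum was 76.9 CPM in cKO 2 and 176 to 191 CPM in the others. Of the 16 measures examined in this way the other 13, among them the other 8 enzyme genes taken singly, had no such embryo.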

How the results depend on the processing

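For the members, 435 of 451 log2 fold changes under an alternative kept their sign and 0 were called, and for the other named genes 880 of 882 kept it. *Uhrf1* in KO against WT ranged from 0.81 to 1.03 over the alternatives, with an unadjusted p from 0.0125 to 0.0701, under 0.05 in 19 of 21, and an adjusted p of 0.506 or more. Its average over the crosses ranged from 0.54 to 0.78. Mean CPM of each member moved by less than its SD under each alternative.

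Genes called went from 0 to 15 (KO against WT), 11 (cKO against flox), 17 (average) and 8 (difference), and from 1 to 35 between the crosses, with no filter beyond 1 count. With DESeq2 they were 10, 5, 12, 4 and 33, and with 10 counts in every library 1 for the average and 0 between the crosses. Leaving out a library gave 0 to 2 in KO against WT (2 without WT 3), 0 to 1 for the average (1 without flox 1) and 1 to 11 between the crosses (11 without WT 3, 4 without KO 3). Genes of the lists called went from 0 to 2 (cKO against flox, the globin genes *Hba-a1* and *Hbb-bs*), 3 (average), 1 (difference) and 2 (between the crosses) with no filter, and to 1 between the crosses with DESeq2 and to 0 to 1 without a library (1 without WT 3). The cause was not tested.

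Signs changed for *Tdg* in cKO against flox, to -1.24 with voom and -2.46 with the replicate block, and for *Dnmt3a* there, to -0.034 with the replicate block. Leaving out a library, KO against WT ranged from -0.081 to 0.66 for *Dnmt3a*, -1.23 to 1.04 for *Dnmt3b*, -4.42 to 6.83 for *Tdg*, -0.044 to 1.28 for *Kdm1b* and -0.41 to 0.88 for *Zbtb38*. In cKO against flox it ranged from -0.020 to 0.40 for *Dnmt3a*, -1.21 to 0.59 for *Tet1*, -0.14 to 0.26 for *Tet3*, -0.22 to 1.05 for *Tdg* and -0.84 to 0.23 for *Dnmt3l*. Libraries with the same replicate number had correlations of deviations from -0.02 to 0.06, and the block on this number changed no call of a member. For flox 3 the number in the column label is not the replicate number and is shared with cKO 4. By label, flox 1 with cKO 1 had 0.064, flox 2 with cKO 2 0.040 and flox 3 with cKO 4 0.024. Other pairs of flox and cKO were lower. A pairing by label was not tested. A fit of 2 groups gives no value for contrasts of 4 groups, so it was not run there.

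With 3 or 4 embryos per group and counts of a member as low as 0, the confidence intervals of 6 of the 8 tested members, all but *Dnmt3a* and *Tet3*, took in a 2-fold change in both comparisons. Reads that copy 1 molecule could not be recognised.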
